A study of Mus musculus with 4 samples.

Results

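The genes described here encode membrane and membrane-linked proteins of noncompact myelin and of the myelin internode in Schwann cells, the glia that wrap peripheral axons. They were chosen by name: Mag, Cnp, Prx, Drp2, Gjb1, Cldn19, Mal, Pllp, Cdh1 and A330049M08Rik, whose RefSeq accessions are those of Ncmap, the name used below. All 10 were found, on 18 of the 28107 transcript rows of the tables and among 21965 genes with a usable value. RNA sequencing compared pooled sciatic nerves of Zeb2 cKO mice with those of control mice, both of mixed strain background and at postnatal day 7. The product of Zeb2 is a zinc finger transcription factor. The abbreviation cKO stands for a conditional knockout, whose Cre line and deleted exons the labels do not name, so the cells that lost the gene cannot be stated from them. The labels describe 2 samples in each group, of which 1 library in each group, itself a pool of nerves, is held by the tables used here. No test between the groups is therefore possible and no p-value is given.

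A myelinating Schwann cell compacts most of its spiral membrane but keeps channels of cytoplasm at the inner turn beside the axon, in the Schmidt-Lanterman incisures, in the paranodal loops next to each node and in the Cajal bands under the outer surface. These channels are held together by junctions that the cell forms with its own membrane: adherens junctions, tight junctions and gap junctions. Another set of proteins joins the outer membrane to the basal lamina through dystroglycan. In humans, mutations of GJB1 and PRX cause forms of Charcot-Marie-Tooth neuropathy.

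The tables give FPKM, a level scaled to transcript length and to mapped fragments, with an estimated 20180394 reads on usable rows for the Zeb2 cKO library and 29616050 for the control library. Ratios are log2((FPKM Zeb2 cKO + 1)/(FPKM control + 1)) over the 12903 genes with a mean of at least 1 FPKM, called measured below, and folds are plain FPKM ratios. Parentheses after a fold or share hold its 95% counting interval from estimated reads, which says nothing of how animals, pools or libraries vary. Zeb2 itself was at 19.5 FPKM in Zeb2 cKO nerve and 34.4 FPKM in control nerve, a log2 ratio of -0.79, lower as labelled but by less than 2-fold. Sox10, which marks the Schwann cell lineage, was at 69.2 in Zeb2 cKO and 139 FPKM in control nerve, a log2 ratio of -0.996 and so just short of 2-fold on this scale. The median measured gene had a log2 ratio of 0.18. In nerve tissue, fewer cells of a type and less RNA per cell cannot be told apart.

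All 10 genes were measured, and in Zeb2 cKO nerve all 10 were lower by at least 2-fold, as were 6.25% of all measured genes (806 genes). None was higher by 2-fold, against 8.59% of measured genes (1109 genes). With values rescaled to the median gene those counts, over the same 12903 genes, became 940 lower and 807 higher. The median log2 ratio of the 10 was -4.32, with a spread between genes of 1.43 (SD over the 10 genes, not over replicates). Together they stood at 246 FPKM in Zeb2 cKO nerve and 4240.2 FPKM in control nerve, 17.2-fold lower, and took 0.0886% (0.0873 to 0.0899) of the estimated reads in Zeb2 cKO nerve and 1.57% (1.56 to 1.57) in control nerve. A 4-fold or larger drop on the pseudocount scale was seen in 9 of the 10 and in 2.46% of measured genes, and a 16-fold or larger one in 5 of the 10 and in 0.643% of measured genes. Markers of skeletal muscle were lower in the same library: all 17 listed, summed to 1070 FPKM in Zeb2 cKO nerve and 8654 FPKM in control nerve. Their part in these ratios was not tested.

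**Figure D1:**
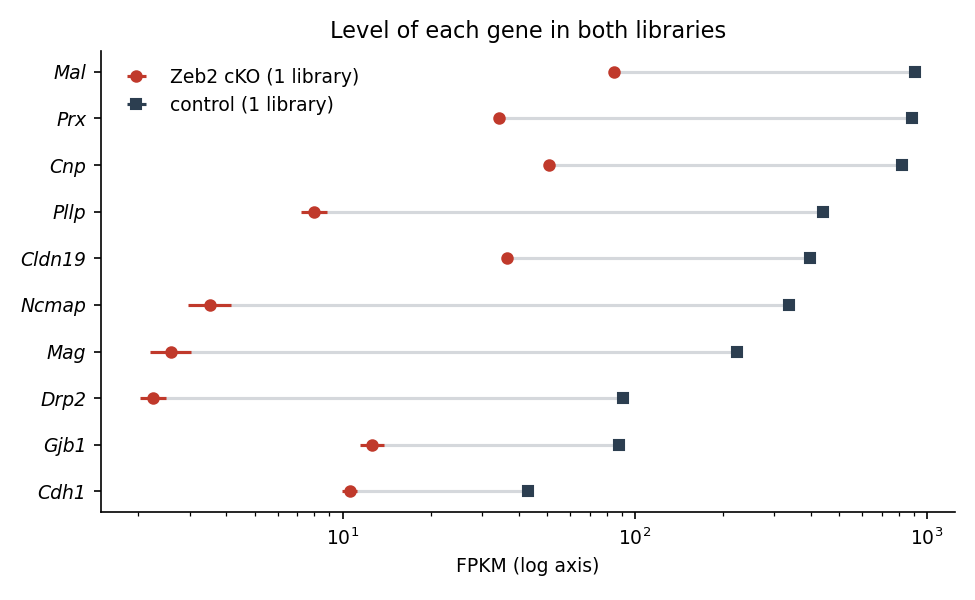
FPKM of each of the 10 genes on a log axis, with the Zeb2 cKO library as red circles and the control library as dark squares, 1 library each; bars are 95% counting intervals. Every red circle lies left of its square, with the widest gaps for Ncmap and Mag and the narrowest for Cdh1.

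Ncmap and Mag had the lowest ratios of the 10. Mag, a sialic acid-binding adhesion protein of the Schwann cell membrane that faces the axon (mm9 chr7:31684202-31699851), was at 2.58 FPKM in Zeb2 cKO nerve and 224 FPKM in control nerve, 86.8-fold lower (74.0 to 102). The Zeb2 cKO value rests on an estimated 152 reads. Ncmap, a small membrane protein named for noncompact myelin (chr4:134925492-134954142), was at 3.52 in Zeb2 cKO and 338 FPKM in control nerve, 96.1-fold lower (81.4 to 114). The counting intervals of these folds overlap, so their order is not settled even by counting. Among the 12903 measured genes, ordered from the lowest ratio, Ncmap was number 24 and Mag number 28.

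Cnp encodes a cyclic nucleotide phosphodiesterase of the cytoplasm-rich parts of myelin (chr11:100436253-100443053). It was at 50.7 FPKM in Zeb2 cKO nerve and 820.2 FPKM in control nerve, 16.2-fold lower (15.6 to 16.8). It ranked 1305 by level among all genes of the Zeb2 cKO library and 53 in control nerve, so its transcripts were still well above the median measured gene, which was at 9.78 FPKM in Zeb2 cKO nerve.

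Prx and Drp2 encode partners in 1 complex of the outer Schwann cell membrane. Periaxin, the product of Prx (chr7:28284343-28305060), binds Drp2, a dystrophin relative, and through it dystroglycan, at the patches that border the Cajal bands. Prx was at 34.3 FPKM in Zeb2 cKO nerve and 889.8 FPKM in control nerve, 25.9-fold lower (25.1 to 26.7). Drp2 (chrX:130939319-130991112) was at 2.24 in Zeb2 cKO and 90.9 FPKM in control nerve, 40.6-fold lower (36.7 to 45.1). Dag1, which encodes dystroglycan itself, was at 163 in Zeb2 cKO and 226 FPKM in control nerve, a log2 ratio of -0.47.

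The junction genes of paranodal loops and incisures were lower by 4.07-fold to 10.9-fold. Gjb1 encodes the connexin of gap junctions that cross the layers of noncompact myelin (chrX:98572676-98580963), and was at 12.6 FPKM in Zeb2 cKO nerve and 88.5 FPKM in control nerve, 7.01-fold lower (6.37 to 7.74). Cldn19, a claudin that Schwann cell tight junctions need in mice (chr4:118928046-118935043), was at 36.5 in Zeb2 cKO and 397 FPKM in control nerve, 10.9-fold lower (10.5 to 11.3). Cdh1, E-cadherin of the adherens junctions (chr8:109127268-109194146), was at 10.6 in Zeb2 cKO and 43.0 FPKM in control nerve, 4.07-fold lower (3.82 to 4.33), the smallest fold of the 10. With the pseudocount Cdh1 had a log2 ratio of -1.93 and was number 341 from the lowest.

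The proteolipids Mal and Pllp belong to the MARVEL family, whose members take part in the sorting of lipid-rich membrane. Both are found in compact as well as noncompact myelin. Mal (chr2:127458962-127482431) was at 85.0 FPKM in Zeb2 cKO nerve and 909 FPKM in control nerve, 10.7-fold lower (10.4 to 10.99). Pllp, plasmolipin (chr8:97198795-97220142), was at 7.996 in Zeb2 cKO and 439 FPKM in control nerve, 54.9-fold lower (49.6 to 61.1). Mal had the highest level of the 10 in both libraries, ranking 731 among all genes in Zeb2 cKO nerve and 42 in control nerve.

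From the largest to the smallest fold, the order of the 10 was Ncmap, Mag, Pllp, Drp2, Prx, Cnp, Cldn19, Mal, Gjb1 and Cdh1. Counting intervals of neighbours in this order overlapped for Ncmap with Mag and for Cldn19 with Mal, and were apart for the other neighbours. The Zeb2 cKO levels of the 10 spanned 38.0-fold and the control levels 21.1-fold. Across the 10 genes, levels in Zeb2 cKO and control nerve had a Spearman correlation of 0.62, and control level and ratio one of -0.16. Both are descriptions over 10 genes that share the same pair of libraries, and the ratio holds the control level itself.

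**Figure D2:**
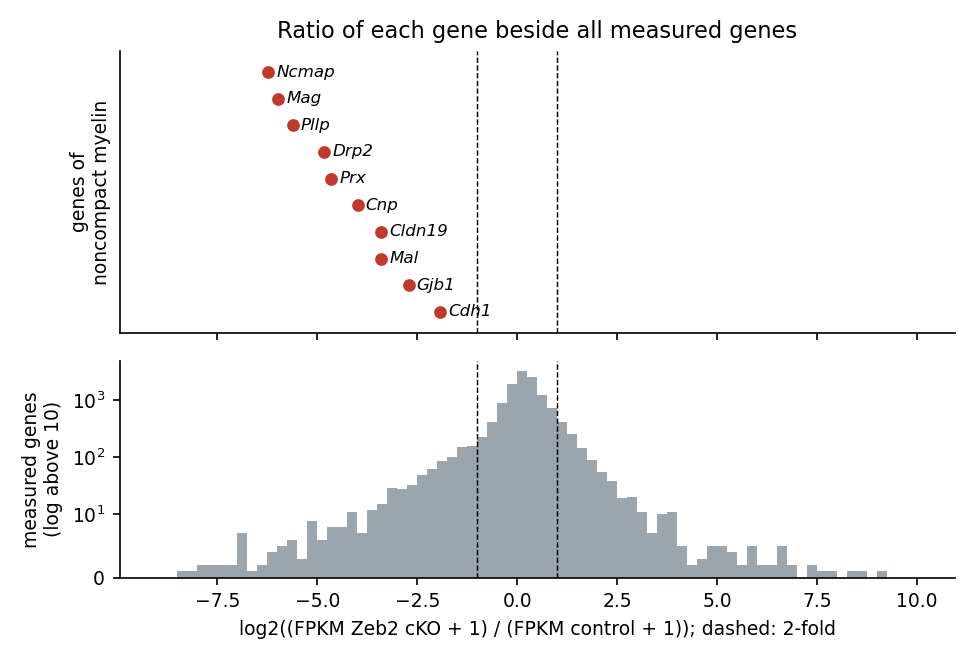
Log2 ratios of the 10 genes (red, top) above the histogram of log2 ratios of all 12903 measured genes (grey, bottom, log axis above 10 genes), with dashed lines at 2-fold. The 10 genes lie between -6.23 and -1.93, to the left of the lower line.

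Set against Sox10, whose level was also lower, each of the 10 had the lower ratio. The difference between the log2 ratio of the gene and that of Sox10 was smallest for Cdh1, at -0.93, and reached -5.23 for Ncmap. Dhh, a signal that Schwann cells secrete, was at 191 FPKM in Zeb2 cKO nerve and 139 FPKM in control nerve, a log2 ratio of 0.45. Of 16 measured regulators of Schwann cell myelination, 3 were 2-fold or more lower: Pou3f1 (log2 ratio -5.09), Egr2 (-2.50), which binds and drives myelin genes, and the neuregulin receptor Erbb3 (-1.52). Nfatc4 (1.16) and Zeb1 (1.296) were 2-fold or more higher, and the list had a median of -0.15. After rescaling to the median gene Sox10 passed 2-fold as well (-1.18), and of the higher ones Zeb1 alone remained past it.

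Transcript rows separated some of these genes further. Cufflinks divides reads among overlapping transcripts by estimation, so the division carries an error that the tables used here do not state. In Prx, the row that matches a GENCODE transcript coding for 1391 residues, the large periaxin, was at 26.6 FPKM in Zeb2 cKO nerve and 629.5 FPKM in control nerve, 23.7-fold lower. The row that matches a transcript coding for 148 residues, the small periaxin, was at 7.72 in Zeb2 cKO and 260.3 FPKM in control nerve, 33.7-fold lower. The large form thus made up 77.5% of the gene's FPKM in Zeb2 cKO nerve and 70.7% in control nerve.

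In Cnp the rows differed more. The row that begins 952 bases further into the gene was at 12.3 FPKM in Zeb2 cKO nerve and 487 FPKM in control nerve, 39.7-fold lower. The row that begins at the outer start was at 38.5 in Zeb2 cKO and 333 FPKM in control nerve, 8.66-fold lower. The inner-start row therefore held 24.2% of the gene's FPKM in Zeb2 cKO nerve and 59.4% in control nerve, and by estimated reads 25.8% (24.2 to 27.4) in Zeb2 cKO and 61.5% (61.1 to 61.8) in control nerve. It was the major row in control nerve and the minor one in Zeb2 cKO nerve.

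Cldn19 has rows for proteins of 211 and 224 residues. The 211-residue row was at 22.4 FPKM in Zeb2 cKO nerve and 288 FPKM in control nerve, 12.8-fold lower, and the 224-residue row at 14.1 in Zeb2 cKO and 109 FPKM in control nerve, 7.74-fold lower. The shorter protein's row held 61.4% of the FPKM in Zeb2 cKO nerve and 72.5% in control nerve. These shares depend on length, since the rows are 4236 bases (211 residues) and 869 bases (224 residues) long: by estimated reads the shorter protein's row held 88.6% in Zeb2 cKO and 92.8% in control nerve.

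In Ncmap, the 2 rows with the inner start held 94.3% of the FPKM in Zeb2 cKO nerve and 99.6% in control nerve. They begin 12555 bases inside the outer start and differ from each other by 3 bases in length, so the division between them was left aside. In Mal, the 153-residue row held nearly all of the FPKM in both libraries. Mag is listed on 1 row, which matches a transcript coding for 582 residues, so large and small Mag isoforms were not told apart here. Cdh1, Drp2, Gjb1 and Pllp also have 1 row each.

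**Figure D3:**
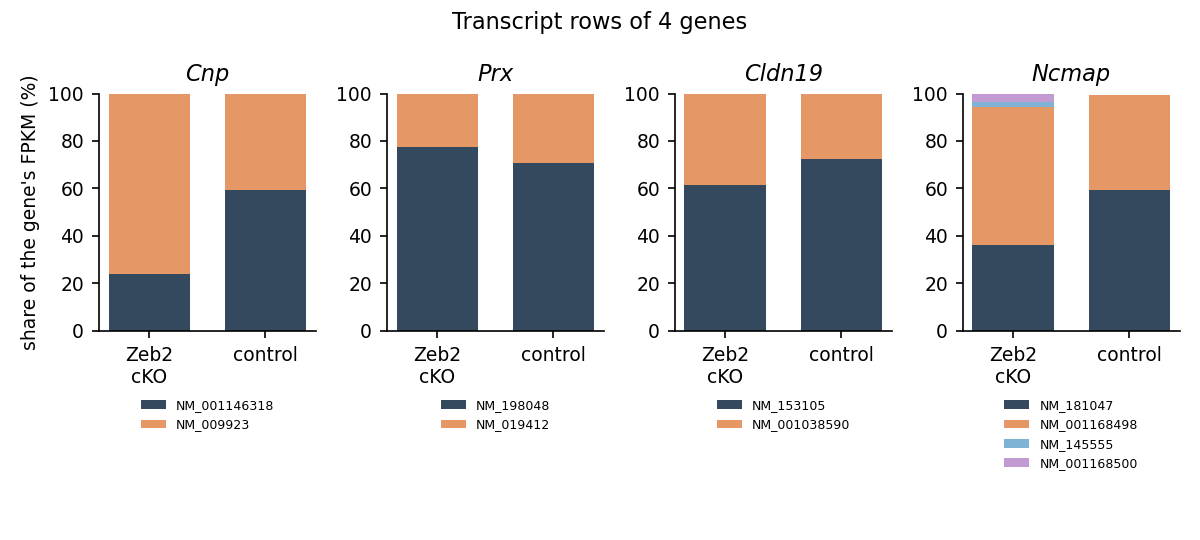
Share of each gene's FPKM (percent) held by each transcript row in Zeb2 cKO nerve (left bar) and the control library (right bar), for Cnp, Prx, Cldn19 and Ncmap; rows at or below 1% in both libraries are left out. The dark row of Cnp holds 24.2% in Zeb2 cKO nerve and 59.4% in control nerve, and the bars of Prx and Cldn19 differ less.

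Promoter windows from RefSeq (GRCm38.p6, 250 bases before to 50 after a start) were found for 8 of the 10 genes, and for Cdh1 and Drp2 none was used. Where a gene has several windows, the one nearest to the start of its main transcript row was taken. Cnp has 1 window, which lies at its outer start. The row that was its major one in control nerve begins 952 bases further in, so the matches given for Cnp are not at that row's start. Short motifs of Zeb factors and of Sox and Egr factors, which act in Schwann cells, were searched on both strands: CACCTG, the E-box that Zeb proteins bind, ACAAAG and ACAATG of Sox factors, and GCGTGGG and GCGGGGG of Egr factors. CACCTG was in 2 of the 8 windows (Cnp and Pllp) and in 20.2% of all 32851 windows. ACAAAG was in 2 of 8 (Mag and Cnp) and in 18.7% of all windows, and ACAATG in 0 of 8 and 12.6%. GCGTGGG was in 3 of 8 (Cnp, Prx and Ncmap) and in 5.04% of all windows, and GCGGGGG in 0 of 8 and 10.8%. No match overlapped another, and with 8 windows these shares are a description only. A match of letters is not a bound site. Gjb1 has 4 windows but 1 transcript row, so which start the nerve uses was not determined.

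The 250 bases before the start on GRCm38.p6, read 5′ to 3′ from RefSeq, are shown for Mag (chr7:30914864-30915113, minus strand), Ncmap (chr4:135385673-135385922, minus strand), Pllp (chr8:94696243-94696492, minus strand) and Prx (chr7:27499074-27499323, plus strand). These are the 4 genes with the largest folds among those with a window, and each holds 1 of the motifs, in capitals: the reverse complement of ACAAAG in Mag, GCGTGGG in Ncmap, CACCTG in Pllp and the reverse complement of GCGTGGG in Prx. In the same order, the motif begins 126, 35, 40 and 161 bases before the start. Among the other windows, that of Cnp held 3 matches, and those of Gjb1, Cldn19 and Mal held none. The share of all windows with at least 1 motif was not computed, so no link between motifs and folds is drawn.
Mag: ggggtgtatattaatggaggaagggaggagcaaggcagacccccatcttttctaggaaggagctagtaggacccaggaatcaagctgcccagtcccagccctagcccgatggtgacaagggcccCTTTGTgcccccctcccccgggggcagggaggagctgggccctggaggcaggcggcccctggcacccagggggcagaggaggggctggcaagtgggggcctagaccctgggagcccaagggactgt
Ncmap: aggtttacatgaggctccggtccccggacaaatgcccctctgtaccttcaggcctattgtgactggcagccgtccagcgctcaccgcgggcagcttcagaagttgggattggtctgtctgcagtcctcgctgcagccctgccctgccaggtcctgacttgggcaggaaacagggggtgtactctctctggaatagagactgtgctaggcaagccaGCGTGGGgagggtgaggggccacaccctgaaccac
Pllp: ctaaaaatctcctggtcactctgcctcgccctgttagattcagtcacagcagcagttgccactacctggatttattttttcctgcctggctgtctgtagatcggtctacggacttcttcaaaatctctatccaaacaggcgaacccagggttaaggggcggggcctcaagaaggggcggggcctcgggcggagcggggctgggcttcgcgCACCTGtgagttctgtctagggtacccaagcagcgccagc
Prx: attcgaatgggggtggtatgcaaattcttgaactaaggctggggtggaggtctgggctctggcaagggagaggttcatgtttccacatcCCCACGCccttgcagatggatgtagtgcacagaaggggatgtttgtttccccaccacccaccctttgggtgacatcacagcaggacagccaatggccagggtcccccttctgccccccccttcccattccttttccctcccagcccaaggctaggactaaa
The windows are rich in G and C, at 66.0% for Mag, 61.2% for Ncmap, 57.2% for Pllp and 56.4% for Prx, against a median of 52.4% over all windows.

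Genes beside the 10 on the chromosome differed less. No other listed gene overlapped any of the 10 on mm9. Of the 20 nearest measured genes, 1 on each side, 4 were 2-fold or more lower, 2 were 2-fold or more higher and 14 lay within 2-fold, with a median log2 ratio of 0.02. Each of the 20 had a higher ratio than the gene beside it. Arl2bp, 472 bases from Pllp, was at 71.3 FPKM in Zeb2 cKO nerve and 62.4 FPKM in control nerve, and Dnajc7, 1096 bases from Cnp, at 48.1 in Zeb2 cKO and 56.2 FPKM in control nerve. The 4 lower neighbours were Sertad1 beside Prx (log2 ratio -1.37), Cdh3 beside Cdh1 (-1.14), Ybx1 beside Cldn19 (-1.13) and Acly, the citrate lyase that supplies lipid synthesis, beside Cnp (-1.02). The higher ones were Cx3cl1 beside Pllp (1.40) and Mall beside Mal (2.30).

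**Figure D4:**
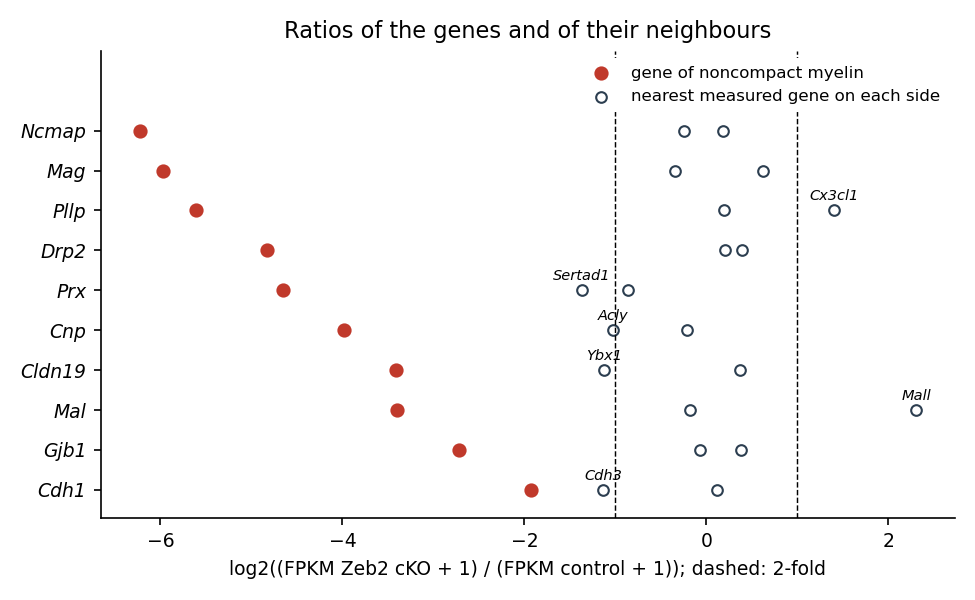
Log2 ratios of the 10 genes (red) and of the nearest measured gene on each side on mm9 (open circles), with dashed lines at 2-fold; neighbours past 2-fold are named. The open circles lie between -1.37 and 2.30, each to the right of the red point in its row.

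Relatives of the 10 in the same protein families went in both directions. Among connexins, 10 of 20 were measured, of which 4 were higher by 2-fold and 2 lower (median log2 ratio 0.71). The lower ones were Gjb1 and Gjc3, the other connexin of myelinating Schwann cells, which was at 54.8 FPKM in Zeb2 cKO nerve and 337 FPKM in control nerve (log2 ratio -2.60). The higher ones were Gja1, at 47.6 in Zeb2 cKO and 8.75 FPKM in control nerve (2.32), Gjb5 at 11.4 in Zeb2 cKO and 1.96 FPKM in control nerve (2.07), Gjb2 at 8.56 in Zeb2 cKO and 1.37 FPKM in control nerve (2.01) and Gjb6 at 2.64 in Zeb2 cKO and 0.206 FPKM in control nerve (1.59).

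Among claudins, 7 of 25 were measured. Besides Cldn19, Cldn12 was lower (log2 ratio -1.23), while Cldn1, at 135 FPKM in Zeb2 cKO nerve and 24.2 FPKM in control nerve (2.43), and Cldn22, at 6.39 in Zeb2 cKO and 0.894 FPKM in control nerve (1.96), were higher. Cldn1 is a tight junction protein of perineurial cells, and 8 of 10 listed perineurial markers, Cldn1 and Gjb6 among them, were 2-fold or more higher in Zeb2 cKO nerve. After rescaling to the median gene Lypd2 (0.84) and Ptch1 (0.92) on that list fell short. The summed level of that list was 483 FPKM in Zeb2 cKO nerve and 216 FPKM in control nerve, and its part in the junction genes was not tested. Dhh, which Schwann cells make, is also on that list.

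Most cadherins past 2-fold were higher, unlike Cdh1. Of 13 measured among 24, 6 were 2-fold or more higher and 3 lower, with a median of 0.93. Cdh2, N-cadherin of immature Schwann cells, was at 53.0 FPKM in Zeb2 cKO nerve and 5.87 FPKM in control nerve (log2 ratio 2.97), so that it stood above Cdh1 in Zeb2 cKO nerve and below Cdh1 in control nerve in FPKM. Cdh10 was at 20.2 in Zeb2 cKO and 2.44 FPKM in control nerve (2.62). Cdh20 (1.21), Cdh24 (1.18), Cdh11 (1.12) and Cdh19 (1.01) were higher by less. With the Zeb2 cKO values rescaled to the median gene, Cdh11 and Cdh19 fell short of 2-fold (0.94 and 0.83). Besides Cdh1, the lower ones were Cdh3, its neighbour, and Cdh15 (-1.29), M-cadherin of muscle, which stands beside the muscle markers given above.

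In the family of Mal and Pllp, 13 of 15 were measured, 5 were lower by 2-fold and 1 higher (median -0.23). Mall, a Mal-like proteolipid, was at 13.0 FPKM in Zeb2 cKO nerve and 1.83 FPKM in control nerve (log2 ratio 2.30), opposite to Mal, the gene next to it. Besides Mal and Pllp, the lower ones were Myadml2 (-1.86), Cmtm2b (-1.74), which was listed at 0 in Zeb2 cKO nerve and at 2.33 FPKM in control nerve, and Cmtm5 (-1.10), at 72.0 in Zeb2 cKO and 156 FPKM in control nerve. Of the Siglecs, the lectin family of Mag, only Cd33 was measured besides Mag, at 2.11 in Zeb2 cKO and 2.22 FPKM in control nerve (-0.05).

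**Figure D5:**
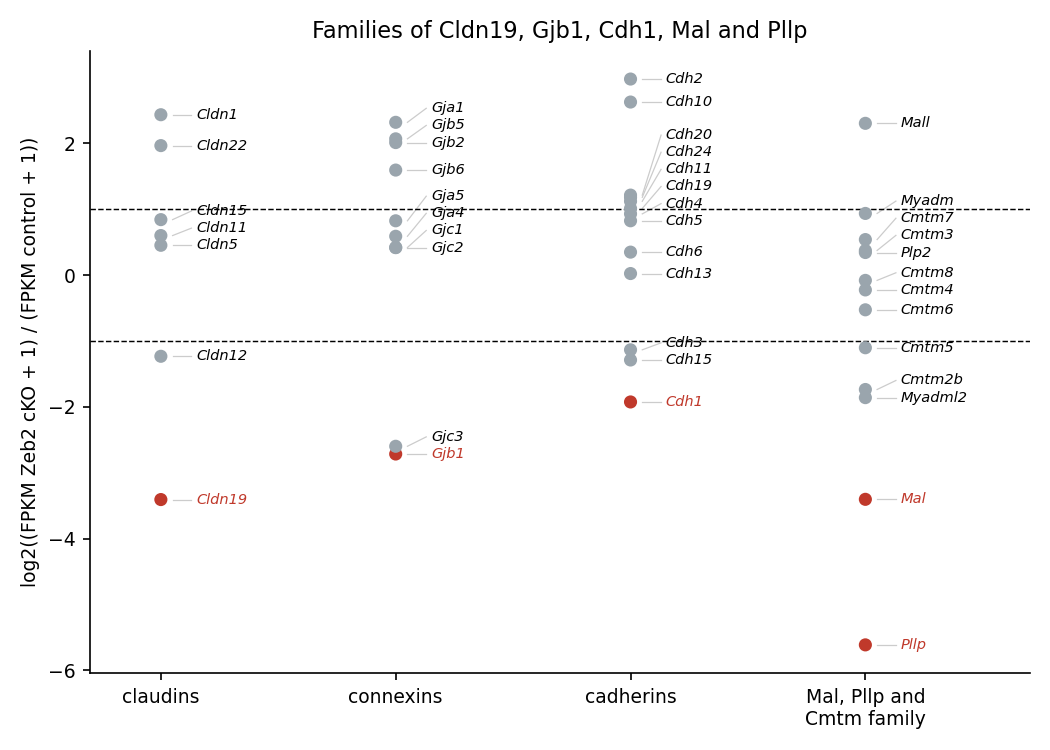
Log2 ratios of measured claudins, connexins, cadherins and members of the Mal, Pllp and Cmtm family, with the genes of noncompact myelin in red and dashed lines at 2-fold. In each column red genes lie lowest, and Cldn1 (2.43), Gja1 (2.32), Cdh2 (2.97) and Mall (2.30) lie highest.

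Proteins that work with the 10 were mostly within 2-fold. In the list of dystroglycan-linked genes, 5 of 19 measured genes were lower by 2-fold and 0 higher (median -0.36). Itga6, the laminin-binding integrin subunit, was at 27.3 FPKM in Zeb2 cKO nerve and 158 FPKM in control nerve (log2 ratio -2.49), and Utrn, utrophin, at 20.2 in Zeb2 cKO and 78.3 FPKM in control nerve (-1.90). Among the other lower ones were Dmd, dystrophin (-1.46), and Sgca (-1.89), a sarcoglycan of striated muscle, beside the muscle markers already given. Among the dystrophin relatives, 3 of 5 were lower: Drp2 (-4.83), Utrn and Dmd.

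In the list of junction plaque proteins, 15 of 18 were measured, of which 2 were higher by 2-fold and 1 lower. The median was 0.12, or -0.05 after rescaling to the median gene. The catenins that link E-cadherin to actin differed little: Ctnnb1 was at 203 in Zeb2 cKO and 197 FPKM in control nerve (log2 ratio 0.04) and Ctnna1 at 109.8 in Zeb2 cKO and 99.8 FPKM in control nerve (0.14). F11r, a junctional adhesion molecule, was at 50.5 in Zeb2 cKO and 11.6 FPKM in control nerve (2.04), Ocln, occludin, at 4.29 in Zeb2 cKO and 0.433 FPKM in control nerve (1.88) and Marveld3 at 0.0801 in Zeb2 cKO and 3.11 FPKM in control nerve (-1.93).

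Among periaxonal adhesion and polarity genes outside the 10, several were lower. Of 16 measured, 5 were lower by 2-fold and 0 higher (median -0.21). With only the highest row of each gene 3 were lower, and with a pseudocount of 0.1 FPKM 1 was higher. Cadm4, the Schwann cell adhesion molecule that binds axonal partners along the internode, was at 104 FPKM in Zeb2 cKO nerve and 512 FPKM in control nerve (log2 ratio -2.29). Cadm3 was at 5.48 in Zeb2 cKO and 53.6 FPKM in control nerve (-3.08) and Mpp6, a scaffold, at 9.74 in Zeb2 cKO and 53.2 FPKM in control nerve (-2.33). Fyn (-1.28), a kinase that acts below Mag in oligodendrocytes, and Cadm2 (-1.47) were the other lower ones. At the paranode and node, 3 of 10 measured genes were lower and 2 higher, with a median of 0.03, or -0.14 after rescaling to the median gene. Nfasc, whose glial form anchors the paranodal loops, was at 0.612 in Zeb2 cKO and 27.7 FPKM in control nerve (-4.15), Gldn, gliomedin, at 8.10 in Zeb2 cKO and 80.3 FPKM in control nerve (-3.16) and Epb4.1l2 at 70.0 in Zeb2 cKO and 224 FPKM in control nerve (-1.66). Cntn1 (1.06) and Cntnap1 (1.18) were higher, and Cntn1 fell short of 2-fold after rescaling to the median gene (0.89). With a pseudocount of 5 FPKM neither passed 2-fold.

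Molecules that bind Mag, or that make the gangliosides it binds, are largely on the axon. The values here are of RNA from whole nerve and do not tell which cells it came from, so they are not levels on the axon. Of 9 measured, 2 were 2-fold or more lower, Ngfr (log2 ratio -1.38) and the sialyltransferase St3gal3 (-1.29), and 0 were higher. Ngfr is also on the list of immature Schwann cell markers. The median was 0.57, or -0.51 over those at a mean of at least 5 FPKM, and 3 were past 2-fold higher with a pseudocount of 0.1 FPKM. Lrp1 was the highest at 36.1 FPKM in Zeb2 cKO nerve and 17.9 FPKM in control nerve (0.97). The median of compact myelin genes was near that of the 10: all 4 with a value used here were 2-fold or more lower, and their median was -4.58. Of the 5 on that list, 1 was left out because its row had a status other than OK. With rows of every status 4 were lower, 1 was 2-fold or more higher and the median was -4.47. The higher value comes from a row without OK status and was not used. Pmp2 (-6.75), Pmp22 (-4.69) and Mbp (-4.47) were the lowest.

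Some of the 10 are also expressed by other cells, so markers of those cells were read beside them. Epithelial markers, read for Cdh1, were low: Epcam was at 0.133 FPKM in Zeb2 cKO nerve and 0.0304 FPKM in control nerve, and 2 of 10 were measured, Krt19 (7.50 in Zeb2 cKO and 2.06 FPKM in control nerve) and Krt8 (1.32 in Zeb2 cKO and 1.39 FPKM in control nerve). Krt19 is on the perineurial list too. Esrp1, on the epithelial list but at a mean of 0.842 FPKM and so not measured, was lower, as Cdh1 was. It was at 0.0625 in Zeb2 cKO and 1.62 FPKM in control nerve. Of 9 oligodendrocyte markers in the tables, read for Mag, Cnp and Mal, Sox8 alone was measured (27.1 in Zeb2 cKO and 12.7 FPKM in control nerve), and Mog was at 0.0760 in Zeb2 cKO and 0.0874 FPKM in control nerve. Mobp, at a mean of 0.515 FPKM and so not measured, was lower, as Mag, Cnp and Mal were. It was at 0.0642 in Zeb2 cKO and 0.967 FPKM in control nerve, on an estimated 5.11 and 86.2 reads. T cell markers, read for Mal, reached a mean of 1 FPKM in 0 of 8 cases. Endothelial markers, read for Prx, lay within 2-fold for all 10, with a median of 0.70 and Cldn5 at 55.2 in Zeb2 cKO and 40.1 FPKM in control nerve. Melanocyte markers, read for the neural crest lineage, were 2-fold or more lower for 2 of 4 measured, Pmel (-2.18) and Dct (-1.62). Mitf lay within 2-fold at 2.55 in Zeb2 cKO and 5.43 FPKM in control nerve. Of 10 fibroblast markers 6 were higher by 2-fold, Cd34 (1.60) and Dcn (1.39) among them, while Col3a1 lay within 2-fold at 2874 in Zeb2 cKO and 1692 FPKM in control nerve. Markers of immature Schwann cells were higher for 5 and lower for 1 of 9, with Gfap at 300.1 in Zeb2 cKO and 0.914 FPKM in control nerve and Ncam1 at 75.6 in Zeb2 cKO and 14.6 FPKM in control nerve. After rescaling to the median gene Dpt (0.85), Pi16 (0.95) and Notch1 (0.92) on these lists fell short of 2-fold. The lists summed to 10.3 FPKM in Zeb2 cKO and 6.21 FPKM in control nerve for epithelial markers, 27.96 FPKM in Zeb2 cKO and 14.7 FPKM in control nerve for oligodendrocyte markers, and 2.32 FPKM in Zeb2 cKO and 1.03 FPKM in control nerve for T cell markers. Sox8 alone held most of both oligodendrocyte sums, so they say little of the other markers on that list. Endothelial markers summed to 277 FPKM in Zeb2 cKO and 169 FPKM in control nerve, and melanocyte markers to 9.21 FPKM in Zeb2 cKO and 22.2 FPKM in control nerve. Fibroblast markers summed to 9592 FPKM in Zeb2 cKO and 5752 FPKM in control nerve, and markers of immature Schwann cells to 555 FPKM in Zeb2 cKO and 119 FPKM in control nerve. The part of these cells in the ratios of the 10 was not tested.

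With 1 library in each group, likeness of pattern could only be read from the ratio. The genes at a mean of 5 FPKM or more whose log2 ratio was nearest to the median of the 10 were Mir221 (-4.35), Mir337 (-4.28) and Arhgap19 (-4.24). The first 2 are short microRNA rows listed at 0 in Zeb2 cKO nerve, and Arhgap19 was at 8.96 FPKM in Zeb2 cKO nerve and 187 FPKM in control nerve.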

How the data were processed

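RNA of pooled sciatic nerves was sequenced after Trizol extraction and Illumina TruSeq library preparation, per the labels' protocols. CASAVA, TopHat, Cufflinks and Cuffdiff and the build mm9 are named in the submitters' processing notes, and their versions and options are not given in the sources used here. The FPKM values were made by the authors with Cufflinks for each RefSeq transcript, per the file headers. Coverage, also deposited by the authors, is a signal of read depth along each transcript before scaling to library size. Tables were assigned to groups and not to numbered samples, since the labels name each one for both samples of a group. Ratios use a pseudocount of 1 FPKM, which understates the change of low genes.

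The 295 rows with a status other than OK in either table were left out, and FPKM was summed by symbol (22096 symbols, 21965 kept). FPKM tables hold no whole counts, so no count model was used. Reads were estimated as coverage times length divided by 52.6 bases, the median of 479 values between 20 and 75 bases that 1 read adds in single-row genes over 2000 bases. The control library was 1.47 times as deep. Intervals are exact Poisson for levels and Clopper-Pearson for ratios and shares (95%). PCR copies are counted as reads.

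The 10 genes and the lists were chosen with earlier results of these data known. There were 7 pathway lists, 9 cell marker lists and 6 families by symbol pattern. Named were all 10 genes, Zeb2, the 3 largest absolute ratios of each list or family, the top 2 of each marker list, neighbours, and 3 genes nearest in ratio. Other named genes were chosen after their values were seen. A few genes picked this way are not reported here. GENCODE M21 transcripts were matched by RefSeq accession for coding lengths and for transcript starts, from which the distance to promoter windows was measured. Counting code was tested on simulated data. Python 3.11.15, pandas 2.3.3, SciPy 1.17.1 and matplotlib 3.10.9 were used.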

Additional observations from a re-analysis of the deposited data

How the results depend on the processing

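All 10 genes were 2-fold or more lower under every alternative tried that kept the 2-fold threshold: other pseudocounts, filters and scalings, coverage in place of FPKM, the highest row of each symbol and rows of every status. The 90 log2 ratios so obtained ran from -6.55 to -1.62. At a 4-fold threshold 9 of the 10 remained past it. Their median was -3.81 with a pseudocount of 5 FPKM, -4.50 after rescaling to the median gene and -4.07 with the highest row. The counts over all genes depended more on settings. Higher genes numbered 477 with a pseudocount of 5 FPKM, 739 at a mean of at least 5 FPKM, 2537 at 1.5-fold and 221 at 4-fold, and lower genes 529, 1266 and 318 with that pseudocount and at 1.5-fold and 4-fold. Rescaling to the median gene changed the split to 801 higher and 940 lower where the filter was applied again after rescaling, and to 807 and 940 over the same 12903 genes, against 1109 and 806 as deposited. The median of those 12903 genes was then 0.02. These differences follow from how each setting is built: a larger pseudocount shrinks ratios, thresholds and filters change what counts, and rescaling lowers every Zeb2 cKO value by 1 factor, which the pseudocount dampens in low genes. List medians changed sign with that rescaling for junction plaque genes (-0.05) and paranode genes (-0.14). The paranode median was also below 0 after scaling by the upper quartile (-0.06), with the highest row of each symbol (-0.21) and at a mean of at least 5 FPKM (-0.14). At that filter the median of Mag binding partners was -0.51 and that of the family of Mal 0.06. Lists and Zeb2 were rerun under alternatives chosen after seeing the data. No paired analysis was possible because each group has 1 library here, and no library could be left out. With a pseudocount of 0.1 FPKM 3 Mag binding partners were past 2-fold higher, and 1 periaxonal gene was so with that pseudocount and by coverage. With the highest row of each symbol 3 periaxonal genes were past 2-fold lower. With a pseudocount of 5 FPKM 0 paranode genes were past 2-fold higher, junction plaque genes past it numbered 1 higher and 0 lower, and claudins, connexins, cadherins and the family of Mal had fewer genes past 2-fold, with 2 cadherins higher and 1 lower. Depth limits Mag and Ncmap most among the 10: their Zeb2 cKO values rest on 152 and 140 estimated reads.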
